A study of Mus musculus with 27 samples.

Results

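The regions described here are 931 stretches of the mouse genome, each 1 kb long, whose DNA methylation was lower in all 3 SHMT2 libraries than in all 3 vector libraries of a lymphoma model. They were drawn from 89375 autosomal tiles of 1 kb that held at least 3 cytosines read at least 10 times in each of the 6 libraries. The level of a tile was the methylated calls over all calls at those cytosines, in percent. A tile entered the set when its highest SHMT2 level lay below its lowest vector level and the 2 group means were at least 10 percentage points apart, which 1.04% of the tested tiles met. The same rule turned round found 641 tiles that were higher in every SHMT2 library, 0.717% of those tested. Since the members were chosen by these measured methylation levels, the levels are given as a description, and support nothing by themselves.

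Both groups were B220+ cells, B220 being the form of the surface protein CD45 that B cells carry. In both, the cells came from the VavP-Bcl2 model, in which a transgene drives the survival gene Bcl2 in blood cells from the Vav promoter. The RNA-seq and ChIP-seq labels state that haematopoietic stem cells of VavP-Bcl2 fetal livers at E13.5 received MSCV-SHMT2, a retrovirus that expresses SHMT2, or the empty vector, were injected into wild-type mice irradiated on 2 occasions, and gave spleen tumours from which B220+ cells were taken. The SHMT2 group and the vector group had 3 libraries each in enhanced reduced representation bisulfite sequencing (ERRBS) and in RNA-seq, 2 each in H3K4me1 ChIP-seq, and 3 and 2 in H3K4me3 ChIP-seq. The ERRBS labels name the cells, the model and the transfection, and give no embryo, recipient or organ. Their transfection label reads SHMT3 and SHMT4 for SHMT2 replicates 2 and 3, and the titles, which read SHMT2, were followed. Separate mice are not stated for the libraries of a group, and a p-value here measures no more than the spread between libraries, part of which may be technical.

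Methyl groups sit in mammalian DNA mostly on the cytosine of a CG dinucleotide, where DNMT1 copies them at replication, DNMT3A and DNMT3B write them anew, and the TET enzymes oxidise them towards removal. Most of the genome is CG-poor and methylated, whereas the CG islands at the starts of many genes are unmethylated and carry trimethylated lysine 4 of histone H3 (H3K4me3). The monomethylated form (H3K4me1) marks enhancers and the flanks of active promoters. SHMT2, the mitochondrial serine hydroxymethyltransferase, passes a carbon of serine to folate, and folate-bound carbon feeds the synthesis of the methyl donor used by DNA and histone methyltransferases.

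Each ERRBS library listed between 1330340 and 1424115 cytosines, read 63.0 to 71.6 times on average, and 1211987 autosomal cytosines were shared by all 6. ERRBS cuts DNA before sequencing so that CG-rich fragments are read most, and its reads carry no molecular tags, so intervals on its calls cover counting error only. SHMT2 replicate 2 and vector replicate 1 stood apart on the sex chromosomes, with 186 and 185 chromosome Y cytosines, against 1125 and 1158 in the other SHMT2 libraries and 1108 and 1095 in the other vector libraries. Shmt2 RNA stood at 244, 345 and 259 TPM (transcript abundances scaled to 1 total in every library, which keep no depth) in SHMT2 cells, and at 174, 223 and 157 TPM in vector cells. The B cell genes Cd79a and Pax5 were present in all 6 RNA libraries. The summed TPM of 30 B cell identity genes was 16946.7, 17606.3 and 17573 in SHMT2 cells, against 17891.8, 14071.5 and 14161.6 in vector cells. Transcripts of other blood cells also differed in amount. The summed TPM of 14 erythroid genes was 318, 176 and 324 in SHMT2 cells, against 180, 6763 and 1362 in vector cells, and that of 20 measured myeloid genes was 403, 280 and 257 in SHMT2 cells, against 187, 1032 and 897 in vector cells. For 23 measured T and natural killer cell genes it was 473, 228 and 234 in SHMT2 cells, against 226, 611 and 596 in vector cells. Of these sums, Il7r gave 70.4, 38.7 and 29.5 TPM in SHMT2 cells and 19.9, 307 and 258 TPM in vector cells. Cd3d, Cd3e, Cd3g and Cd247 of the same list were instead highest in SHMT2 replicate 1. In bulk DNA, a lower level can be less methylation in the same cells or another mix of cells, and these cannot be told apart.

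Most members lay far from promoters, and the RefSeq promoter table gave windows over 30 members, from 250 bases before to 50 bases after a gene start. The 250 bases before the start are printed below for 4 of these genes, picked after their values were seen, to show which CG sites were read and how few of them the tile levels rest on. The sequences are from RefSeq (GRCm38.p6, the mm10 build), run 5′ to 3′ on the strand of the gene, and have in capitals each CG that lies in the member tile and was read in all 6 libraries on at least 1 strand. They come from chr2:130451571-130451820 (minus strand, before Gm52562, a long non-coding RNA gene inside the phosphatase gene Ptpra), chr11:47379326-47379575 (minus strand, before Sgcd, which encodes delta-sarcoglycan of the muscle membrane), chr7:141276787-141277036 (minus strand, before Cdhr5, a microvillus cadherin of epithelia) and chr9:83548088-83548337 (plus strand, before Sh3bgrl2, a small thioredoxin-like protein).
Gm52562: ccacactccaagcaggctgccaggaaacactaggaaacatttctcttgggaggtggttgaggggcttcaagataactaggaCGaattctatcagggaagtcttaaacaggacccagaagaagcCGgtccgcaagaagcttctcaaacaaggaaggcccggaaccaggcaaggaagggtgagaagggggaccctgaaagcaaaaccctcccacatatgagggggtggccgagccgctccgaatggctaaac
Sgcd: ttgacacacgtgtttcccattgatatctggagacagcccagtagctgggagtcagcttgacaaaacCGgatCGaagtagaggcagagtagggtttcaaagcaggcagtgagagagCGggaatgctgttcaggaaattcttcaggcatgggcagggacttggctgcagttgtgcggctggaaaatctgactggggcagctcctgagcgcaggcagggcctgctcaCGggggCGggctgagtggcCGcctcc
Cdhr5: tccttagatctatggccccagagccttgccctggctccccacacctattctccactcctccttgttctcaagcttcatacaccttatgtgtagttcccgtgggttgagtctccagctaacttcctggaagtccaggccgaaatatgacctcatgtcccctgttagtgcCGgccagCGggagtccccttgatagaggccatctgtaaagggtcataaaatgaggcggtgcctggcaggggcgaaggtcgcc
Sh3bgrl2: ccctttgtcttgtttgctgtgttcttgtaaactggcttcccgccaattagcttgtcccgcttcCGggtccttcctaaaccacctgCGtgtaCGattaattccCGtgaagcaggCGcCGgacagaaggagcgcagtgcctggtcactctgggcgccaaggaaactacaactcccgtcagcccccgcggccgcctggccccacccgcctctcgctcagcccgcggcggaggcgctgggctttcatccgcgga

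The CG sites in capitals did not behave alike in these 4 windows. Before Gm52562, 2 of 7 CGs were read, and the first stood at 42.9%, 37.3% and 61.7% in SHMT2 replicates 1, 2 and 3, against 72.1%, 66.7% and 81.5% in vector replicates 1, 2 and 3 (libraries are given in this order throughout). The second, at 42.9%, 28.0% and 65.2% in SHMT2 cells and 76.2%, 66.7% and 82.5% in vector cells, showed the same order, with the SHMT2 libraries apart from the vector libraries at both sites. Before Sgcd, 6 of 9 CGs were read. The last 3 of them, nearest the start, differed by −29.6, −24.5 and −33.9 points (SHMT2 minus vector mean), on as few as 12 calls in a library. The first 3 differed by −13.5, −9.8 and −8.0 points. Before Cdhr5, the 2 CGs read differed by −16.0 and −15.5 points. Before Sh3bgrl2, 6 of 22 CGs were read, and the levels of these 6 were 0 to 5.26% in the SHMT2 libraries, against 0 to 7.14% in vector replicate 1, 2.27 to 14.3% in vector replicate 2 and 20 to 35.3% in vector replicate 3. The whole Sh3bgrl2 tile (chr9:83548001-83549000, 17 cytosines) stood at 1.18%, 1.24% and 1.76% in SHMT2 cells and at 2.70%, 3.08% and 30.2% in vector cells, so 1 library, vector replicate 3, gave its difference of −10.6 points.

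Across the 931 members the median level was 66.0%, 54.5% and 69.7% in the SHMT2 libraries, against 76.9%, 79.3% and 77.8% in the vector libraries. The median difference between group means was −13.1 points, with members from −28.9 to −10.004 points. Only 290 members differed by 15 points or more, 64 by 20 or more and 11 by 25 or more. The gap between the highest SHMT2 and the lowest vector library was narrow, with a median of 2.56 points, and it reached 5 points in 213 members and 10 points in 27. Just inside the limit lay tiles in the non-coding gene Gm16008 (chr4:156031001-156032000, −10.006 points) and in Chrna3, a nicotinic receptor subunit (chr9:55025001-55026000, −10.004 points). Just outside lay tiles in Hydin, a ciliary protein gene (chr8:110494001-110495000, −9.998 points), and in Glis1, which encodes a zinc-finger factor (chr4:107610001-107611000, −9.995 points).

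**Figure D1:**
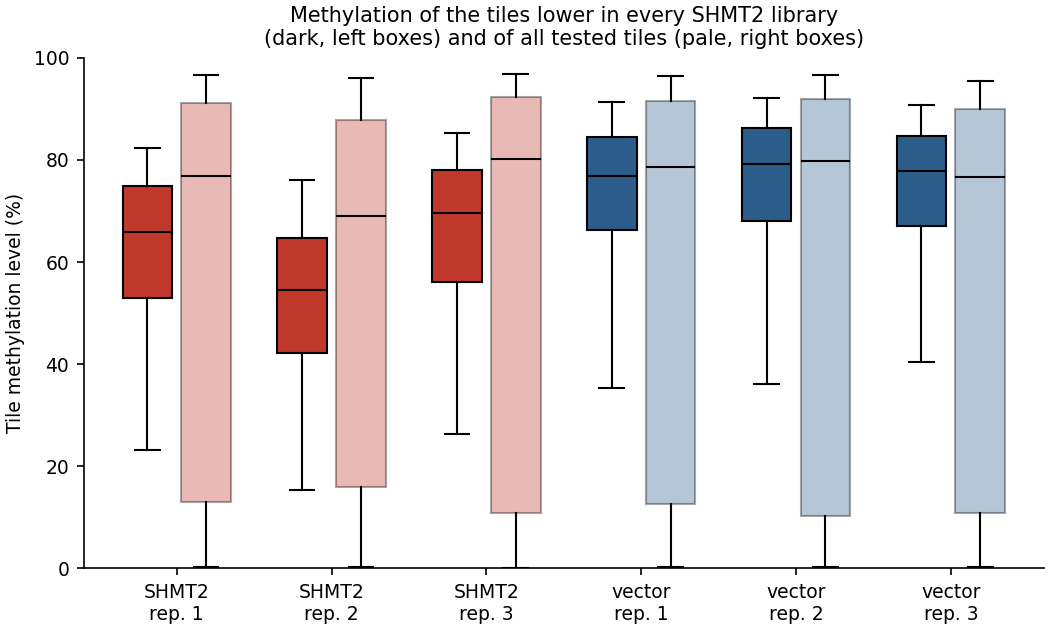
Methylation level in percent (y axis) in each ERRBS library (x axis), with the line at the median, boxes from the 25th to the 75th percentile and whiskers from the 5th to the 95th. Dark boxes are the 931 tiles lower in every SHMT2 library and pale boxes all 89375 tested tiles, and SHMT2 replicate 2 has the lowest median in both (54.5% in the 931 tiles).

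One SHMT2 library carried much of the difference. SHMT2 replicate 2 was the lowest SHMT2 library in 739 members (79.4%), replicate 1 in 121 and replicate 3 in 71. Set against the vector mean, the median member was lower by 10.6 points in SHMT2 replicate 1, by 21.2 points in replicate 2 and by 7.49 points in replicate 3. A difference of 10 points or more was reached by 524 members in SHMT2 replicate 1, by 864 in replicate 2 and by 286 in replicate 3, and by 148 in each of them. The 3 SHMT2 libraries of a member spanned a median of 16.2 points, against 6.14 points for the 3 vector libraries. Without SHMT2 replicate 2, 423 of the 931 still met the rule, and their full number under it was 598, while the median difference of the 931 was −9.39 points. SHMT2 replicate 2 is one of the 2 libraries with few chromosome Y cytosines. With both of those left out the rule found 1107 tiles, of which 449 were among the 931, a comparison chosen after the data were seen. In that comparison, and also without SHMT2 replicate 2 alone, the rule turned round found more tiles higher than the rule found lower. The counts in both directions are given in the last section.

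Across all tested tiles, SHMT2 replicate 2 also departed from the rest in a way that followed the level of the tile. The deviations given here are medians over the tiles of a bin. In tiles of 70 to 80% mean level SHMT2 replicate 2 lay 8.83 points below the mean of the 6 libraries, where SHMT2 replicates 1 and 3 lay 0.203 and 3.86 points above it and the vector libraries 2.27, 3.56 and 0.568 points above it. In tiles of 20 to 30% it lay 6.54 points above that mean, where SHMT2 replicates 1 and 3 stood at 0.456 and −3.24 points and the vector libraries at −1.32, −4.39 and −3.64 points. Its levels were thus drawn in from both ends. Members were most frequent at 60 to 70% mean level, where they made up 4.04% of 4846 tiles, and at 70 to 80%, with 3.67% of 8498 tiles. They made up 0.0191% of the 20904 tiles under 10% and 0.00849% of the 23562 tiles over 90%. The part of this library-wide shift in the choice of members was not tested.

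**Figure D2:**
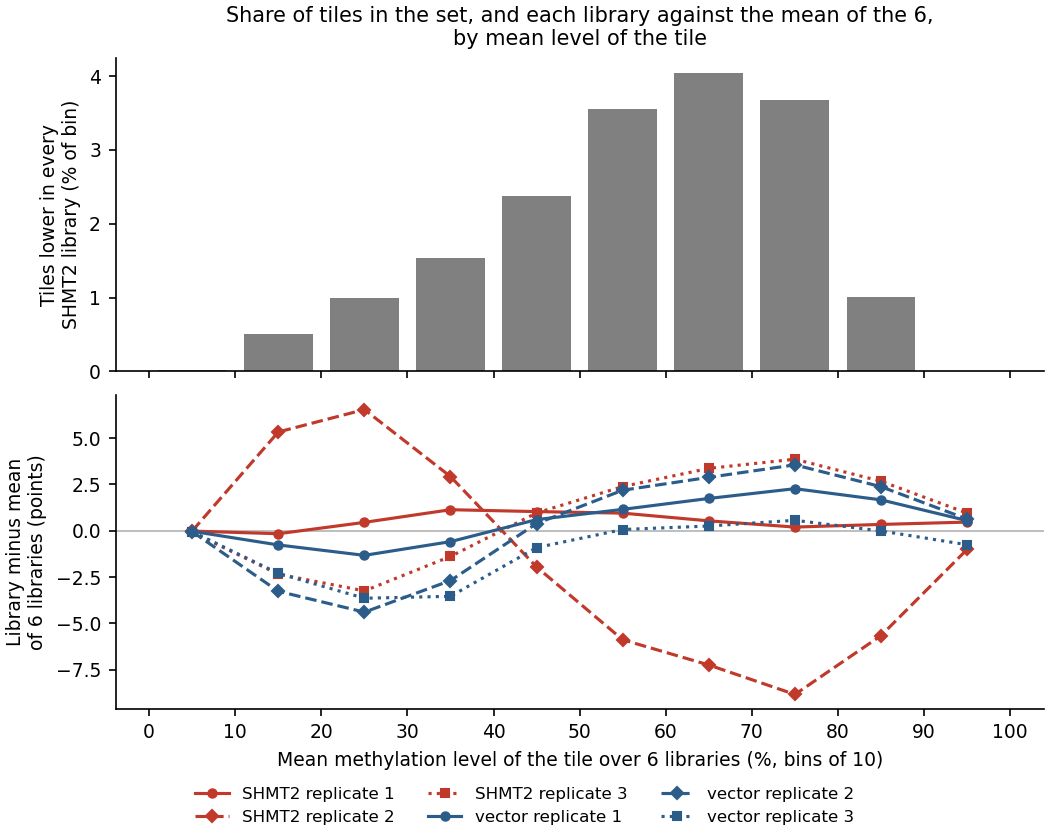
Upper panel: percent of the tested tiles that are lower in every SHMT2 library (y axis), in bins of 10% mean level over the 6 libraries (x axis). Lower panel: the level in each library minus the mean of all 6, as the median over the tiles of the same bins, in percentage points. SHMT2 replicate 2 lies below the other 5 libraries from 40% upwards and above them from 10% to 40%.

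A test over the whole table found no tile. The moderated binomial model, fitted to the methylated and total calls of the 64119 tiles with a mean level from 5% to 95%, called 0 (0% of those tested) at an adjusted p under 0.05, with a lowest adjusted p of 0.637. At an unadjusted p under 0.05 it had 2215 tiles, and limma on logit levels called 0 with 2365 tiles unadjusted. All 931 members were among the tiles tested. Groups that did not overlap, whatever the size of the difference, were found in 4384 tiles that were lower in SHMT2 (4.91%) and in 3478 that were higher (3.89%).

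The largest difference was in Dlg5, which encodes a scaffold protein of cell polarity. Its tile (chr14:24144001-24145000, 6 cytosines, 475 to 594 calls per library) stood at 21.9%, 19.8% and 35.5% in SHMT2 cells, against 49.3%, 60.8% and 53.6% in vector cells. The counting interval (Wilson, 95%) was 31.8 to 39.5% in the highest SHMT2 library and 45.2 to 53.4% in the lowest vector library. All 6 of its cytosines were lower in SHMT2, and the difference was −28.9 points. Next came a tile in Krt2, a keratin gene of the epidermis (chr15:101811001-101812000), at 52.9%, 23.7% and 45.1% in SHMT2 cells and 69.8%, 70.9% and 67.5% in vector cells. The vector libraries of the Krt2 tile lay close together, with an SD of 1.73 points, against 15.1 points in the SHMT2 libraries.

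Sema4d, which encodes a semaphorin known in lymphocytes, had a member (chr13:51750001-51751000) at 23.0%, 34.2% and 64.7% in SHMT2 cells, against 64.9%, 70.3% and 68.9% in vector cells. SHMT2 replicate 3 was 0.219 points below vector replicate 1, so the difference of −27.4 points came from SHMT2 replicates 1 and 2. In the tile of Boll, a germ cell RNA-binding protein gene (chr1:55325001-55326000), the levels were 42.7%, 24.7% and 48.3% in SHMT2 cells and 54.5%, 67.1% and 71.3% in vector cells. Hr, which encodes a corepressor of the hair follicle, had 42.3%, 40.0% and 68.4% in SHMT2 cells and 74.2%, 80% and 73.5% in vector cells (chr14:70563001-70564000). In these 3 genes SHMT2 replicate 3 was the SHMT2 library nearest to the vector libraries.

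Apart from the Krt2 tile, the 5 widest gaps were in tiles where the tile level of SHMT2 replicate 2 did not stand apart from the other SHMT2 libraries. An intergenic tile (chr1:183547001-183548000, 4 cytosines) was at 47.0%, 56.6% and 53.6% in SHMT2 cells and at 76.1%, 80.3% and 83.1% in vector cells, a gap of 19.5 points. Another (chr19:44903001-44904000, 4 cytosines) was at 42.7%, 40.5% and 47.2% in SHMT2 cells and at 66.5%, 68.4% and 67.9% in vector cells, a gap of 19.2 points. The tile levels within each group agreed most closely in an intergenic tile of chromosome 2 (chr2:151888001-151889000, 6 cytosines, 428 to 603 calls), at 70.6%, 71.6% and 70.2% in SHMT2 cells and 89.2%, 87.4% and 88.3% in vector cells. Its single cytosines were less even than the tile, and the one at position 151888298 stood at 43.9%, 83.0% and 54.2% in SHMT2 cells and 77.9%, 84.7% and 81.2% in vector cells. On the minus strand, position 151888370 stood at 81.2%, 47.3% and 77.9% in SHMT2 cells and 86.1%, 87.9% and 93.8% in vector cells. SHMT2 replicate 2 was the highest SHMT2 library at each plus-strand cytosine of this tile and the lowest at each minus-strand one. Its even tile level was thus a balance of the strands. Kcnip1, a potassium channel partner gene, had 33.7%, 45.6% and 42.2% in SHMT2 cells and 62.1%, 61.2% and 62.7% in vector cells (chr11:33783001-33784000), yet only 1 of its 3 cytosines was lower in SHMT2. That cytosine, at position 33783134, stood at 18.2%, 31.1% and 31.2% in SHMT2 cells and at 48.3%, 57.0% and 81.5% in vector cells, and with the tile level taken as the mean of its cytosine levels the Kcnip1 difference was −8.48 points in place of −21.5.

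**Figure D3:**
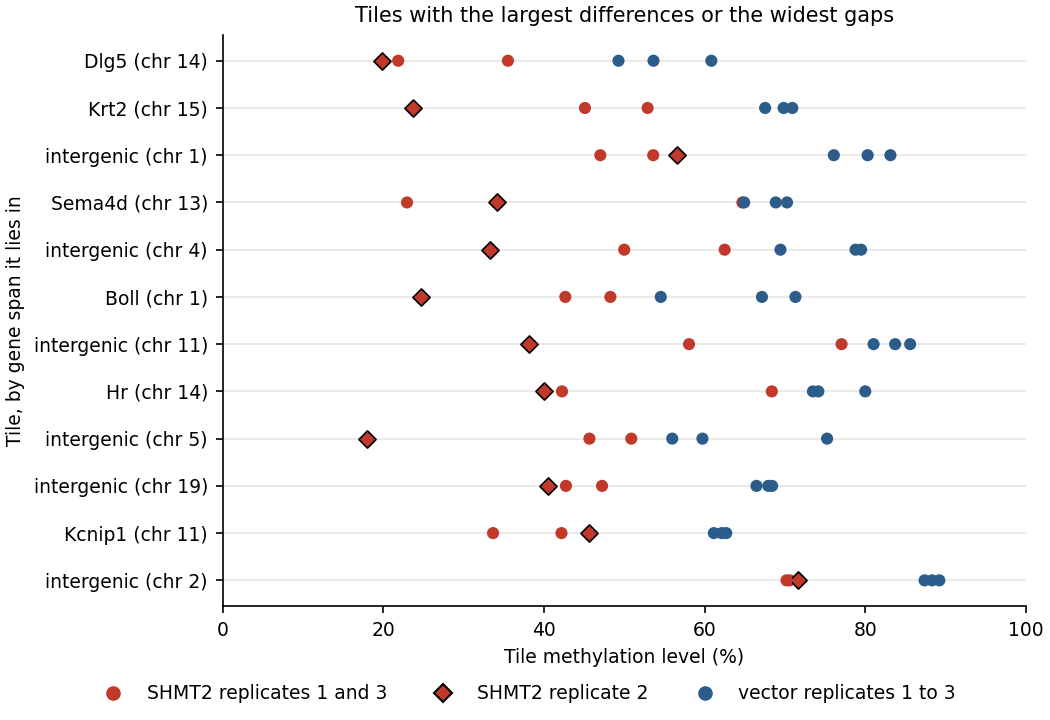
Methylation level in percent (x axis) of 12 tiles with the largest differences between group means or the widest gaps (rows, by the gene span and chromosome), 1 point per library. Diamonds are SHMT2 replicate 2, which is the lowest SHMT2 library in the Krt2 and Boll tiles and the highest in the Kcnip1 tile; all SHMT2 points lie left of all vector points, as the rule requires.

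The members rested on few cytosines. A member held a median of 4 cytosines, against 5 over all tested tiles, and a median of 206.5 calls per library, against 321.5. Tiles with 3 cytosines made up 43.9% of the members and 21.8% of the tested tiles. Only 2 members held 20 cytosines or more, of 14266 such tiles, whose median vector level was 0.490%, while tiles with 3 cytosines had a median vector level of 86.2%. A tile with a vector mean under 10% cannot be 10 points lower, so most CG-dense tiles could not have entered the set. Of the 4134 cytosines in the members, 3821 (92.4%) had a lower SHMT2 mean, and 1412 (34.2%) had no overlap between the groups. In 682 members (73.3%) every cytosine was lower, whereas in 129 (13.9%) no single cytosine separated the groups.

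The promoter windows over members were CG-poor as well. The 31 windows over members held a median of 7 CG dinucleotides in 300 bases, the same as the median of 7 over all 31396 autosomal windows, whereas the 14676 windows over tested tiles held a median of 21. The motif searched was CG, which reads the same on both strands. All 31 windows (100%) held at least 1 CG, against 99.8% of the windows over tested tiles and 94.8% of all autosomal windows.

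Members lay mostly outside genes or deep within them. A gene span held 529 members (56.8%), against 73.1% of the tested tiles, and a protein-coding span 428 members (46.0%), against 64.9%. Within 1 kb of an end of a protein-coding gene lay 42 members (4.51%), against 21.6% of the tested tiles, and more than 10 kb away lay 631 (67.8%), against 48.9%. Promoter windows overlapped 30 of the 906 members on chromosomes with windows (3.31%), against 15.6% of the tested tiles there. The 641 tiles of the opposite direction were nearer to the tested tiles, with 71.3% in a gene span and 16.2% within 1 kb of a coding gene end. Members were spread over all 19 autosomes, from 0.676% of the tested tiles on chromosome 3 to 1.43% on chromosome 15. The annotation used gives gene spans without exons, so exonic, intronic and UTR positions were not assigned.

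Histone marks, which the rule did not use, were scarce on the members. An H3K4me1 peak in any library covered 100 members (10.7%), against 31.1% of the tested tiles, and an H3K4me3 peak 70 (7.52%), against 26.1%. Neither mark was found on 821 members (88.2%), against 66.5% of the tested tiles. By library, H3K4me1 peaks covered 9.24% and 9.67% of the members in SHMT2 cells, against 6.66% and 5.37% in vector cells. Over all tested tiles the same shares were 28.6% and 28.4% in SHMT2 cells, against 20.2% and 17.4% in vector cells, and the H3K4me1 lists of SHMT2 cells were longer throughout, with 48993 and 52056 peaks against 37274 and 33119. H3K4me3 peaks covered 7.09%, 6.02% and 5.80% of the members in SHMT2 cells, against 5.05% and 5.59% in vector cells.

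**Figure D4:**
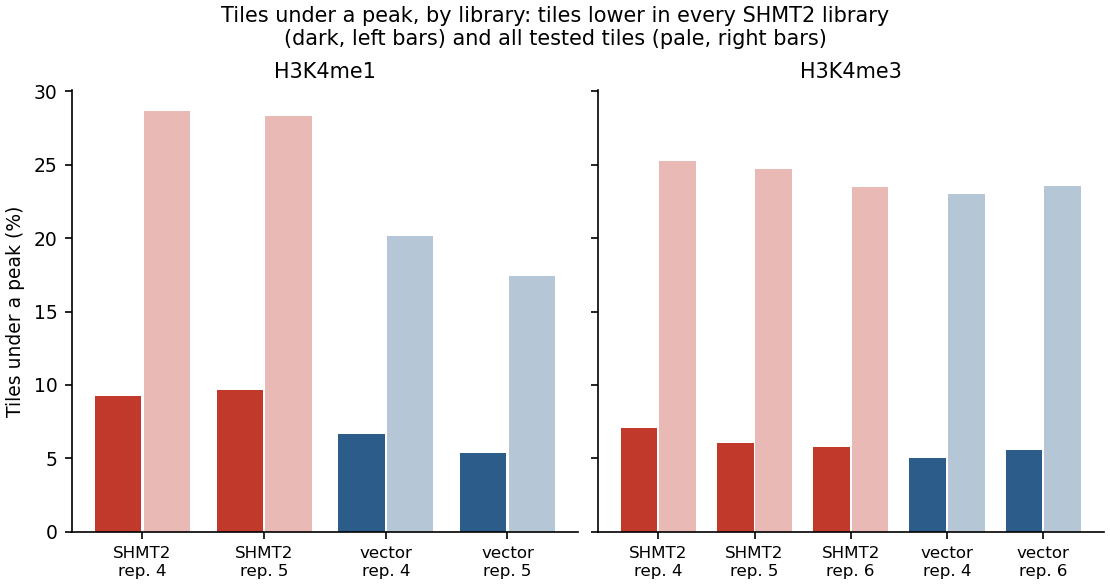
Percent of tiles under a peak (y axis) in each ChIP-seq library (x axis), for H3K4me1 (left panel) and H3K4me3 (right panel). Dark bars are the 931 tiles lower in every SHMT2 library and pale bars all 89375 tested tiles; in each of the 9 libraries the dark bar is lower, and H3K4me1 shares are higher in SHMT2 than in vector libraries for both sets.

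At a vector mean of 50% or more the H3K4me3 shares of members and tested tiles were close, and the H3K4me1 shares of members were lower. Among tiles with a vector mean of 70 to 80%, H3K4me3 covered 3.53% of 255 members and 3.54% of 7538 tested tiles, and at 50 to 70% it covered 8.65% of 185 members and 8.58% of 6891 tested tiles. For H3K4me1 the same bins gave 5.88% of members against 10.1% of tested tiles, and 15.1% against 18.8%. Below a vector mean of 50%, H3K4me3 covered 43.2% of 88 members and 68.7% of 31785 tested tiles, and H3K4me1 53.4% and 70.8%. At 80 to 100%, where 403 members lay, H3K4me1 covered 2.48% of members against 7.43% of tested tiles, and H3K4me3 1.74% against 1.58%. These shares are descriptions of tiles that share libraries, and no test was made on them.

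Few members had a mark in 1 group only. H3K4me1 peaks in both SHMT2 libraries and in neither vector library covered 15 members (1.61%), below the 4.91% of all tested tiles, and the reverse covered 0, against 0.0168%. Among the 15 were tiles in Srgap3, a GTPase-activating protein gene, Syt17, a synaptotagmin gene, and Cdc42bpb, which encodes a kinase of the cytoskeleton. H3K4me3 peaks in all 3 SHMT2 libraries and in neither vector library covered 5 members (0.537%), against 0.279% of the tested tiles, and the reverse covered 1 member (0.107%), against 0.0168%. These 6 were picked for their marks after their values were seen. The 5 lay in Prss56, Fam89a, Lrrc2 and 1700001J04Rik and in 1 intergenic tile (chr5:118344001-118345000), and the 1 lay in Gm6365. In Lrrc2, which encodes a leucine-rich repeat protein, the tile (chr9:110965001-110966000, 8 cytosines) stood at 55.3%, 54.4% and 71.0% in SHMT2 cells and at 71.9%, 80.3% and 84.2% in vector cells. With peaks required to cover 500 bases of the tile, none of the 5 remained.

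Of the 70 members with H3K4me3, 40 had it in all 5 libraries. A tile in the non-coding gene A230056P14Rik (chr7:55969001-55970000) was under a peak in all 9 ChIP-seq libraries, and stood at 52.0%, 47.8% and 58.8% in SHMT2 cells against 79.4%, 81.8% and 72.8% in vector cells. The tile that holds the Gm52562 start printed above (chr2:130451001-130452000) was likewise marked in all 9, at 31.8%, 28.8% and 58.8% in SHMT2 cells and 61.0%, 59.2% and 70.5% in vector cells. Rora, which encodes a nuclear receptor, had a tile marked in all 9 (chr9:69379001-69380000, 6 cytosines) at 45.7%, 18.2% and 56.0% in SHMT2 cells and 58.8%, 67.7% and 59.5% in vector cells. Here SHMT2 replicate 2 was far below the rest, as it was in the tiles of Inpp5b, a phosphoinositide phosphatase gene, at 29.2%, 11.7% and 42.0% in SHMT2 cells against 48.2%, 48.1% and 51.5% in vector cells, and of Myo10, an unconventional myosin gene, at 60.3%, 23.9% and 63.4% in SHMT2 cells against 65.9%, 76.4% and 70.9% in vector cells. The tile of Elk3, an ETS factor gene (chr10:93306001-93307000), had H3K4me1 in all 4 libraries and no H3K4me3, and stood at 59.9%, 52.3% and 76.5% in SHMT2 cells and 77.9%, 86.4% and 79.4% in vector cells.

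Runs of neighbouring members, no more than 2 kb apart, numbered 5. The longest joined 3 tiles in Evpl, which encodes envoplakin of the epidermal cell envelope (chr11:116221001-116224000), with a mean difference of −12.9 points. Its middle tile was the most CG-rich of all members, with 35 cytosines and 3105 to 4045 calls per library, all 35 cytosines lower in SHMT2. That tile stood at 51.0%, 50.8% and 54.5% in SHMT2 cells and at 69.6%, 56.9% and 79.5% in vector cells. In contrast to most members, the spread of the Evpl tile was in the vector libraries. The other runs joined 2 members each, in Syt17 (chr7:118381001-118383000, −15.5 points), in Kcnj4, a potassium channel gene (chr15:79490001-79493000, −13.3 points), in Fbxo41, an F-box protein gene (chr6:85473001-85476000, −10.7 points), and between genes (chr11:89153001-89157000, −15.9 points).

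Of 15690 protein-coding genes with a tested tile, 396 held a member, 2.52% of them. Evpl, the synaptic scaffold gene Shank2, the chromatin regulator gene Prdm16 and the calmodulin-binding factor gene Camta1 held 3 members each, of 12, 27, 62 and 79 tested tiles, and are named for these counts. Lists of genes that fit B cell lymphoma and SHMT2 held few. None of 21 genes of the DNA methylation machinery with a tested tile held a member, nor did 11 germinal centre and plasma cell genes, 12 myeloid genes and 16 T and natural killer cell genes. Of 41 lymphoma tumour suppressors, 3 held a member (Irf8, Ptprm and Ptprk) and 3 held a tile of the opposite direction (Prdm1, Cdkn2b and Ptprm). Of the other lists, 1 of 23 B cell identity genes (Irf8), 1 of 25 imprinted genes (Rasgrf1), 1 of 25 serine and folate genes (Cbs) and 2 of 8 erythroid genes (Slc4a1 and Ank1) held a member. A tile of the opposite direction was held by 3 of the 11 germinal centre and plasma cell genes (Bcl6, Mef2b and Prdm1). Ebf1 of the B cell identity list and Gnmt of the serine and folate list held one too, as did 400 of all 15690 genes. These counts are small, and none was tested against the 2.52% of all genes.

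Irf8, a transcription factor of B cells and myeloid cells, had its member inside the gene span (chr8:120744001-120745000, 9 cytosines, all lower in SHMT2), under H3K4me1 in all 4 and H3K4me3 in all 5 libraries. The levels were 25.6%, 10.8% and 31.9% in SHMT2 cells, against 32.5%, 41.7% and 44.2% in vector cells, with 0.612 points between the groups. Irf8 RNA stood at 1264, 1369 and 1491 TPM in SHMT2 cells, against 1340.4, 929.6 and 870.4 TPM in vector cells, and the groups overlapped (log2 fold change 0.42, limma adjusted p = 0.317). Vector replicate 1 was the one vector library within the SHMT2 range, so leaving it out removes the overlap by choice. Without it the log2 fold change was 0.61 and the limma adjusted p 0.0389. That setting called 850 of 11136 genes (7.63%), and kept vector replicates 2 and 3, whose erythroid and myeloid sums were high. Ptprm, a receptor phosphatase gene studied as a tumour suppressor, had a member (chr17:66761001-66762000) at 55.4%, 48.2% and 65.9% in SHMT2 cells and 69.5%, 74.6% and 74.3% in vector cells, and its RNA stood at 0.083, 0.177 and 0.039 TPM in SHMT2 cells and 0.063, 0.316 and 1.04 TPM in vector cells. In Rasgrf1, an imprinted exchange factor gene, the member (chr9:89913001-89914000) stood at 63.1%, 51.2% and 63.7% in SHMT2 cells and 78.6%, 74.9% and 69.5% in vector cells. Rasgrf1 RNA, too low to be tested, was at 0.357, 0.199 and 0.300 TPM in SHMT2 cells and 0.524, 0.981 and 1.91 TPM in vector cells, without overlap. Cbs, the enzyme that joins homocysteine to serine, had a member at 85.3%, 65.7% and 83.7% in SHMT2 cells and 87.8%, 90.8% and 86.7% in vector cells (chr17:31617001-31618000), and its RNA was listed at 0 in 5 libraries.

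The erythroid members lay in Slc4a1 and Ank1, which are 2 of the 14 genes in the erythroid sum. Their RNA is thus part of that sum, and its likeness to the sum is no separate evidence. Slc4a1, the anion exchanger of red cells, had a member (chr11:102358001-102359000) at 28.9%, 24.2% and 46.5% in SHMT2 cells and 55.1%, 62.4% and 50% in vector cells. Its RNA stood at 42.3, 20.5 and 49.4 TPM in SHMT2 cells, against 19.9, 1573 and 292 TPM in vector cells. Ank1, the red cell ankyrin, had a member at 73.6%, 80.8% and 85.2% in SHMT2 cells and 87.0%, 97.8% and 87.7% in vector cells (chr8:23006001-23007000), and RNA at 3.04, 1.56 and 2.80 TPM in SHMT2 cells and 1.99, 119 and 17.8 TPM in vector cells. Neither gene's RNA separated the groups, since vector replicate 1 lay below or among the SHMT2 libraries. The labels tie no ERRBS library to an RNA library, and the part of erythroid cells in the methylation of these tiles was not tested.

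Genes that held members were weakly expressed. Of the 396 genes, 378 were in the RNA table, and 132 had a mean of at least 1 TPM and were tested (34.9%), against 64.5% of the genes with any tested tile. The median TPM of the 378 was 0.166, against 6.13 for the 15166 genes with any tested tile that were in the table. Those 15166 include genes with CG-dense tiles, most of which could not have entered the set. For the 386 listed genes with a tile of the opposite direction the median was 0.655 TPM, and 46.9% were tested. Over all 23382 genes it was 0.613 TPM, and 47.5% were tested. Krt2 and Kcnj4 were listed at 0 in all 6 libraries, and Evpl at 0.062 to 0.222 TPM. At the other end, Sema4d stood at 195, 272 and 236 TPM in SHMT2 cells and at 275, 180 and 257 TPM in vector cells, and Elk3 at 89.8, 99.3 and 104 TPM in SHMT2 cells and 108, 80.6 and 96.2 TPM in vector cells. In both genes the groups overlapped and the limma log2 fold change was small, −0.01 for Sema4d and 0.05 for Elk3.

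No gene passed the RNA test. At an adjusted p under 0.05, limma on log2(TPM + 1) called none of the 11117 genes, a count of 0 (0%). An unadjusted p under 0.05 was reached by 1858 genes, of which 11 were among the 132 genes with members. Groups that did not overlap were found for 5 of the 132 with higher RNA in SHMT2 (3.79%), against 16.9% of all genes tested, and for 11 with lower RNA (8.33%), against 8.26%. The median log2 fold change was −0.12 over the 132 genes and 0.02 over all genes. The summed erythroid and myeloid transcripts were high in vector replicates 2 and 3. So was the T and natural killer cell sum, of which Il7r alone gave 307 and 258 TPM in these 2 libraries. The part of other cells in these counts was not tested. Without vector replicate 1, whose erythroid content was as low as that of the SHMT2 libraries, limma called 850 of 11136 genes (7.63%) and 17 of 130 genes with members (13.1%), 3 of them higher in SHMT2 (2.31%) and 14 lower (10.8%). Over all genes tested, 431 were higher (3.87%) and 419 lower (3.76%). Irf8 was among the 3, and Slc4a1, Ank1, Myo10 and Rdh13 were among the 14.

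**Figure D5:**
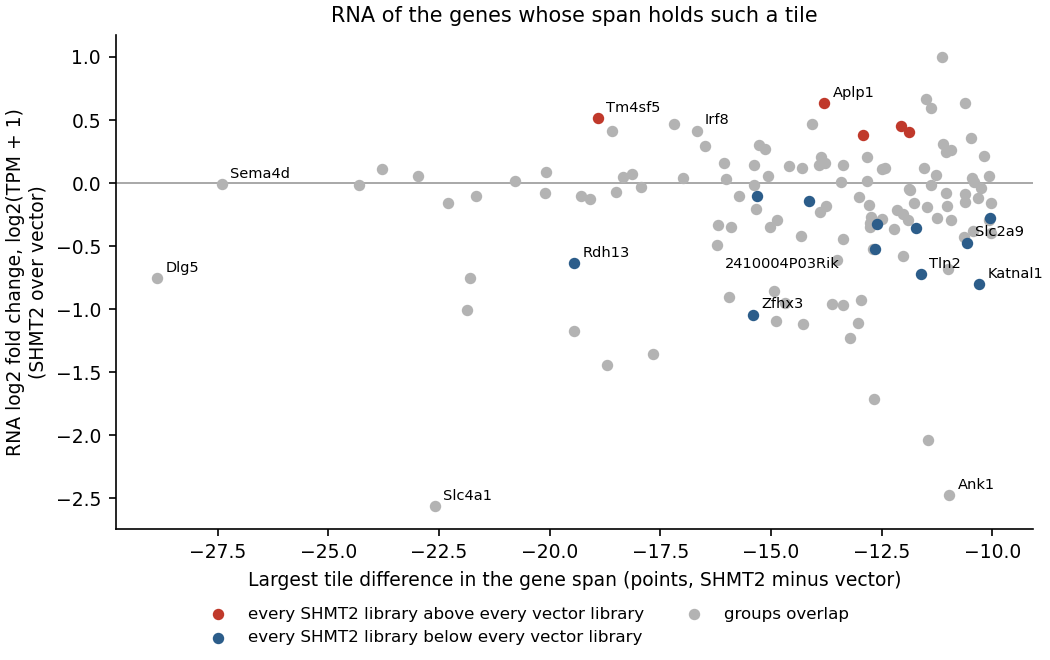
RNA log2 fold change of SHMT2 over vector on the log2(TPM + 1) scale (y axis) against the largest tile difference in the gene span in percentage points (x axis), for the 132 tested genes that hold such a tile. Red points are the 5 genes with every SHMT2 library above every vector library, blue points the 11 with every SHMT2 library below, and grey points the genes whose groups overlap, among them Slc4a1 and Ank1 at the bottom.

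The tile with the lowest SHMT2 levels among genes with separate RNA groups lay where Rdh13, a retinol dehydrogenase gene, overlaps Eps8l1 and D630041G03Rik (chr7:4470001-4471000, 6 cytosines, 234 to 445 calls per library). It stood at 3.15%, 4.27% and 6.43% in SHMT2 cells, against 20.9%, 24.7% and 26.6% in vector cells, and carried H3K4me1 in 3 of 4 and H3K4me3 in 4 of 5 libraries. Rdh13 RNA stood at 10.2, 9.64 and 10.1 TPM in SHMT2 cells and at 14.2, 16.3 and 17.9 TPM in vector cells. The RNA difference was larger than the spread within groups (log2 fold change −0.64, SE 0.11), and had an exact permutation p of 0.1, below which 3 against 3 libraries cannot go; the limma adjusted p was 0.204. Without vector replicate 1, the vector library nearest to the SHMT2 libraries, the limma adjusted p was 0.0288 with a log2 fold change of −0.72. That setting called 850 of 11136 genes (7.63%), so the call is not particular to Rdh13.

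Other genes with separate RNA groups were named for the size of their RNA difference, and all had limma adjusted p from 0.204 to 0.374 and an exact permutation p of 0.1. Katnal1, a microtubule-severing subunit gene, stood at 22.9, 31.5 and 27.8 TPM in SHMT2 cells and at 40.6, 43.0 and 63.5 TPM in vector cells, with a member at 66.2%, 50.8% and 68.5% in SHMT2 cells and 74.0%, 72.6% and 69.8% in vector cells (chr5:148923001-148924000, 13 cytosines). Zfhx3, a homeodomain factor gene with 2 members, stood at 0.463, 0.669 and 0.389 TPM in SHMT2 cells and 4.44, 1.39 and 1.28 TPM in vector cells. Tln2, which encodes talin 2 of cell adhesions, was at 0.393, 0.629 and 0.816 TPM in SHMT2 cells and 3.59, 1.19 and 0.840 TPM in vector cells. In Zfhx3 and Tln2, vector replicate 1 was well above the other vector libraries.

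The urate transporter gene Slc2a9 (1.68, 2.09 and 1.59 TPM in SHMT2 cells, 2.67, 3.19 and 2.73 TPM in vector cells) and 2410004P03Rik (1.58, 1.34 and 0.671 TPM in SHMT2 cells, 2.32, 1.95 and 2.07 TPM in vector cells) were also lower. Higher in SHMT2 were Aplp1, a relative of the amyloid precursor protein gene (2.84, 3.82 and 2.78 TPM in SHMT2 cells, 1.88, 2.20 and 1.04 TPM in vector cells), and the tetraspanin-like gene Tm4sf5 (1.44, 1.53 and 1.28 TPM in SHMT2 cells, 1.11, 0.210 and 0.890 TPM in vector cells). The Tm4sf5 tile (chr11:70509001-70510000, 7 cytosines) was under H3K4me3 in all 5 libraries and stood at 20.3%, 14.98% and 32.1% in SHMT2 cells and 33.2%, 36.1% and 54.8% in vector cells. The gene of the largest tile difference, Dlg5, had RNA at 15.4, 43.3 and 29.6 TPM in SHMT2 cells and 112, 23.6 and 37.5 TPM in vector cells. The Dlg5 groups overlapped, with vector replicate 1 alone above all SHMT2 libraries (log2 fold change −0.76, limma adjusted p = 0.556).

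The genes that write and remove DNA methylation did not separate the groups by the RNA test. Of 22 such genes 19 were tested, 13 with a log2 fold change above 0 and 6 below, with a median of 0.09 against 0.02 over all genes, 6 at an unadjusted p under 0.05 and 0 called by limma. Dnmt1, the maintenance enzyme, stood at 81.7, 100.3 and 90.7 TPM in SHMT2 cells and 101.3, 86.1 and 67.0 TPM in vector cells, and Dnmt3a, a de novo enzyme, at 16.8, 13.8 and 13.7 TPM in SHMT2 cells and 12.8, 16.2 and 15.1 TPM in vector cells. Both overlapped between groups. Tet3, an oxidising enzyme singled out after its values were seen, stood at 68.9, 67.5 and 63.2 TPM in SHMT2 cells and at 96.3, 109 and 86.3 TPM in vector cells, without overlap, with a log2 fold change of −0.54 and a limma adjusted p of 0.204 that missed the threshold.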

How the data were processed

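Per the file headers, an ERRBS table gives for every cytosine its coverage, which is a count of calls, and the percent of C and of T among them. The deposited tables list no cytosine under 10 calls. The submitters' processing notes name Bismark, Bowtie2 and mm10, while the ERRBS labels describe PCR of bisulfite-treated fragments, which leaves the library steps only partly known. Methylated calls were coverage times percent, rounded. The RNA-seq values are TPM as deposited by the authors, with STAR named in the submitters' processing notes. TPM keep no depth, so the RNA depth is unknown. The ChIP-seq files are MACS2 peak lists called by the authors per library, with a fold enrichment and a −log10 q-value per peak as deposited, and a tile was under a peak that overlapped it by at least 1 base. Input libraries were not used here.

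The members, gene lists and tests were chosen with earlier results of these data known. Tiles with a mean level of 5 to 95 percent were tested with a binomial regression whose overdispersion was moderated across tiles (Python 3.11.15, numpy 2.4.6, scipy 1.17.1), with a Benjamini-Hochberg adjusted p under 0.05 and a difference of 10 points. RNA was tested with limma 3.58.1 (R 4.3.3, empirical Bayes with trend) on log2(TPM + 1) where the mean reached 1 TPM, so fold changes understate low genes, and single genes by a two-sided exact permutation test. Both models were tested on simulated data. Gene spans and promoter windows were those of RefSeq GRCm38.p6, and all 193825 cytosines read inside promoter windows fell on a CG of the window, so the builds match. A gene held a tile that overlapped its span. Named tiles were those with the 10 largest differences, the 5 widest gaps, up to 10 inside genes under H3K4me3 and up to 6 under H3K4me1 alone by size, the 5 longest runs, those in listed genes and those at the threshold. Named genes were the 8 of largest RNA fold change among those with separate groups, and the genes of named tiles. Of these, 1 tile is not reported here.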

Additional observations from a re-analysis of the deposited data

How the results depend on the processing

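The number of members depended on the rule's settings. It was 662 at a coverage minimum of 20 calls, 481 at 30, 278 with at least 5 cytosines, 27 with at least 10, 2263 at a difference of 5 points and 64 at 20 points. It was 886 with tile levels taken as the mean of the cytosine levels (632 shared), and 924 to 935 with shifted tiles, without the most covered cytosines, or with calls read as C or T only. The tiles of the opposite direction numbered 389 with at least 5 cytosines, 156 with at least 10, 1379 at 5 points and 84 at 20 points, so with at least 5 cytosines they outnumbered the members. Leaving out 1 library, which eases the non-overlap part of the rule and moves the group means, gave 598 to 5558 tiles lower and 931 to 3066 higher. The number lower was 1778 without SHMT2 replicate 1, 598 without SHMT2 replicate 2, 5558 without SHMT2 replicate 3, 1891 without vector replicate 1 and 2000 without vector replicate 3. Without SHMT2 replicate 2 more tiles were higher (1038) than lower (598). Without both libraries of few chromosome Y cytosines, 1107 were lower and 2276 higher. The tile test called 0 under every alternative run.

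The H3K4me1 share of the members was 5.16% for peaks in every library, against 15.1% of all tested tiles. With 1 ERRBS library left out it was 8.75 to 18.7%, against 31.1% of all tiles under a peak in any library. With 500 bases of overlap it was 7.63%, and for peaks with a −log10 q of at least 5 it was 6.77%. The shares of all tiles under these stricter limits are not given here. The H3K4me3 share of the members was 4.30% for peaks in every library, against 22.0% of all tested tiles. With 1 ERRBS library left out it was 5.85 to 12.2%, against 26.1% under a peak in any library. With 500 bases it was 3.76%, and the share of all tiles at that limit is likewise not given. Members marked by H3K4me1 in SHMT2 alone numbered 9 with 500 bases and 26 with the q limit. At 1 base of overlap they were 15 (1.61%), against 4.91% of all tested tiles. By H3K4me3 they numbered 0 in SHMT2 alone and 0 in vector alone with 500 bases. Shares of all tiles under the stricter limits are not given here, so these counts say nothing particular about the members.

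limma called 12 genes with no filter on low values and 0 to 850 with 1 library left out. Of the genes with members, those with separate groups and higher RNA in SHMT2 numbered 3 at 5 TPM, 12 with spans widened by 5 kb and 5 to 17 with 1 library left out. Those with lower RNA numbered 20 with no filter, 6 at 5 TPM, 17 with widened spans and 14 to 44 with 1 library left out, 44 being without vector replicate 1. Leaving out a library eases non-overlap for every gene. Shares of all genes under these settings are not given here, so the counts say nothing particular about genes with members. In the main setting the shares were 3.79% higher and 8.33% lower, against 16.9% and 8.26% of all genes tested. Of the fold changes of the genes named for their RNA and of the tested genes of named tiles, 178 alternative values kept direction and call, 5 passed the threshold and 14 changed sign. The 5 were all without vector replicate 1: Rdh13 at −0.72, Irf8 at 0.61, Myo10 at −1.46, Ank1 at −3.80 and Slc4a1 at −4.24. In that setting limma called 850 of 11136 genes (7.63%). The 14 belonged to 6 genes that were not called. With 1 library left out, the fold changes ranged from −0.093 to 0.040 for Cdc42bpb, −0.063 to 0.14 for Elk3, −0.19 to 0.69 for Ptprk, −0.20 to 0.11 for Sema4d, −0.41 to 0.059 for Srgap3 and −0.064 to 0.16 for Tmem108. The replicate numbers are shared between groups, and no label says that they mark a pairing. Deviations of same-numbered libraries from their group means had correlations of −0.30 to −0.06 in ERRBS and −0.42 to −0.06 in RNA-seq. Deviations within a group of 3 are tied to each other, so these values can neither show nor exclude a shared origin. With the replicate block, 1604 tiles were lower and 1402 higher, and 0 tiles and 0 genes were called. In every pair 16 genes with members had higher and 17 lower RNA, and the shares of all genes in this setting are not given here.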
